A study of Mus musculus with 96 samples.

Results

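The unfolded protein response adjusts the folding capacity of the endoplasmic reticulum (ER) to the load of secretory proteins. Its sensors sit in the ER membrane and are held inactive by the chaperone BiP, encoded by Hspa5, and when unfolded proteins draw BiP away they switch on genes for chaperones, folding enzymes, protein export and degradation of misfolded proteins. Both beta cells, which make insulin, and hepatocytes, which make plasma proteins, depend on this machinery. Here 42 genes of this response were followed by name, and all 42 were found among the 21990 genes of the deposited table, of which 20155 had values. By role they comprised 4 sensors and transcription factors, 11 chaperones and co-chaperones, 2 lectin chaperones, 9 oxidoreductases and prolyl isomerases, 7 genes of ER-associated degradation (ERAD), which returns misfolded proteins to the cytosol for destruction, and 9 genes of translocation, signal peptide removal and export. All 42 passed the filter on low values in each comparison.

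RNA sequencing was performed on islets and liver of the same 48 male C57BL/6N mice, bought at 4 weeks of age. They received a chow diet (CD, LabDiet 5001 with 13.5% fat) or a high-fat diet (HFD, Research Diets D12492 with 60% fat), and 4 mice per diet were taken after each of 4, 8, 12, 16, 20 and 24 weeks of feeding, which gave 96 libraries in 24 groups. Mice carried no transgene in the labels, and the islets were picked by hand from digested pancreas, so that both samples hold several cell types. In such bulk samples, fewer cells of one type and less RNA per cell cannot be told apart. The values are FPKM, a level scaled to transcript length and to the mapped fragments of the library. Differences are given as HFD minus CD of log2(FPKM + 1) with their standard error (SE), and a gene was called at an adjusted p under 0.05 by limma over all genes tested. The question throughout was whether and when HFD moved the machinery in either tissue.

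The tissue labels matched their markers. The summed level of 8 beta cell markers ranged from 576000 to 994000 FPKM in islet libraries, and that of 7 hepatocyte markers from 33900 to 75300 FPKM in liver libraries. Ins1 and Ins2 alone took between 53.7% and 75.1% of the islet FPKM. At week 12 their share was 57.0% ± 2.38 (SD, n = 4) in CD and 69.6% ± 2.10 in HFD islets, and at week 16 it was 62.6% ± 2.13 and 70.8% ± 2.59. The sum of 20 acinar markers, from exocrine cells that also carry much ER, ranged from 5160 to 180000 FPKM in islets, with none at 0. Its group medians were 100000 in CD and 36100 FPKM in HFD islets at week 12, and 40000 and 22000 FPKM at week 24. In liver the sum of these acinar markers lay between 79.4 and 332 FPKM, and insulin RNA reached 0.56% of the FPKM in 1 CD library of week 12. No depth or read count is attached to the values used here.

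The promoters of the group were inspected first, as sequence does not depend on the expression values. The genes were, however, chosen by name as genes of this response. A high share of its known elements among them is therefore a description and no independent support. Of the 42 genes, 35 had a RefSeq promoter window of 250 bases before to 50 bases after the start (GRCm38.p6). The ER stress response element (ERSE) is the site through which ATF6 and XBP1 act together with the factor NF-Y, and consists of CCAAT, 9 bases of any kind, and CCACG. On either strand, it was present in 10 of these 35 genes (28.6%), against 37 of 27025 genes with a window (0.137%). The 10 were Hspa5, Hsp90b1, Dnajc3, Creld2, Calr, Canx, Pdia6, Ero1lb, Syvn1 and Derl3, so that chaperones, lectin chaperones, folding enzymes and ERAD genes were all among them. Its second form, ATTGG, 1 base and CCACG, was found in Herpud1 and Dnajb11, against 0.0444% of all genes. The core of the unfolded protein response element, TGACGTGG, was found in Sec24d and Txndc5, against 0.714% of all genes. The following stretches, each read on the strand of its gene, show the ERSE or its second form in capitals for genes to which the values below return. An ERSE on the opposite strand reads as CGTGG, 9 bases and ATTGG.
Hspa5, chr2:34772019-34772048, plus strand, in the first exon of a GENCODE transcript that starts farther upstream: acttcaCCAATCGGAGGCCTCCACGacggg
Creld2, chr15:88819484-88819573, plus strand: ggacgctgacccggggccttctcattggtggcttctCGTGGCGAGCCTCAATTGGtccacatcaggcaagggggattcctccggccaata
Ero1lb, chr13:12565646-12565735, plus strand: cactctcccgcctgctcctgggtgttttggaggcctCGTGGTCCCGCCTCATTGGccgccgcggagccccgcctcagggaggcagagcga
Calr, chr8:84847040-84847129, minus strand: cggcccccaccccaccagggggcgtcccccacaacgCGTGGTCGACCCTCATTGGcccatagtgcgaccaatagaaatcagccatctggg
Canx, chr11:50325765-50325854, minus strand: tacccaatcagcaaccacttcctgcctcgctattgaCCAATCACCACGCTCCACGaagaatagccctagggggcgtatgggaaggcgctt
Derl3, chr10:75893206-75893295, plus strand: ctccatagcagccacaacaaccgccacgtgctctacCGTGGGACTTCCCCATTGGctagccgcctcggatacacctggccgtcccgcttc
Syvn1, chr19:6046486-6046575, plus strand: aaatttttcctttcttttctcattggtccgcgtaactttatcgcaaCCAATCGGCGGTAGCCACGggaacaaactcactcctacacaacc
Herpud1, chr8:94386337-94386426, plus strand, second form: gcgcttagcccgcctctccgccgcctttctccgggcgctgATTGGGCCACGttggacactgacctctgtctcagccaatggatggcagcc
The element began 65 bases before the start in Hspa5, 126 in Creld2, 201 in Ero1lb, 162 in Calr, 145 in Canx, 156 in Derl3 and 44 in Syvn1, and the second form began 52 bases before the start in Herpud1. A match gives the letters alone and was not tested for binding.

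In CD mice, most of the machinery stood higher in islets than in liver. Averaged over the 6 weeks, 33 of 42 genes were higher and 4 lower in islets, or 78.6% higher, where 66.9% of all genes were higher and 28.5% lower. Ero1lb, the oxidase that regenerates disulfide bonds for protein disulfide isomerases, had the largest difference, with 581 ± 131 FPKM (SD, n = 24) in islets and 20.1 ± 5.80 FPKM in liver, a log2 difference of 4.80 ± 0.08 (SE). All islet libraries of CD mice, from 416.03 to 828 FPKM, were above all liver libraries, from 12.8 to 35.6 FPKM.
Next came Dnajc10, a disulfide reductase of the ERAD pathway, at 2.48 ± 0.05, and the co-chaperones and chaperones Hspa13 at 2.32 ± 0.09, Hyou1 at 2.25 ± 0.13 and Dnajb9 at 2.24 ± 0.12. These 3 differences lay within about 1 SE of each other. Hyou1 serves BiP as a nucleotide exchange factor, whereas Dnajb9 delivers misfolded proteins to it.
The sensors Ern1 (IRE1), Eif2ak3 (PERK) and Atf6 were higher in islets as well, by 2.18 ± 0.07, 2.14 ± 0.06 and 1.38 ± 0.04. Xbp1, whose messenger RNA is spliced by IRE1, was nearer to equal, with 134 ± 10.5 FPKM in islets and 105 ± 27.3 FPKM in liver. Hspa5 itself had 470 ± 102 FPKM in islets and 251 ± 149 FPKM in liver, a log2 difference of 1.07 ± 0.14.
The 4 genes that were lower in islets were Ppib, a prolyl isomerase that acts on collagen and other secretory proteins, by -1.64 ± 0.06, the ERAD adaptor Herpud1 by -0.88 ± 0.09, P4hb, the classic protein disulfide isomerase, by -0.57 ± 0.04, and Edem1, which marks glycoproteins for ERAD, by -0.37 ± 0.06. P4hb had 340 ± 50.0 FPKM in islets and 506 ± 85.0 FPKM in liver. Dnajb11, Calr, Pdia4, Txndc5 and Syvn1 were not called, with log2 differences from -0.08 to 0.13. Under median ratio scaling, 28 genes were higher and 11 lower in islets, against 56.7% and 37.9% of all genes, and the median of all genes moved from 0.66 to 0.30. Calr, Pdia4, Dnajb11, Syvn1, Fkbp2, Derl1 and Txndc5 were then called lower in islets, and Xbp1, Ssr3 and Creld2 were not called, whereas the sensors Ern1, Eif2ak3 and Atf6 and the chaperones named above stayed higher.

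**Figure D1:**
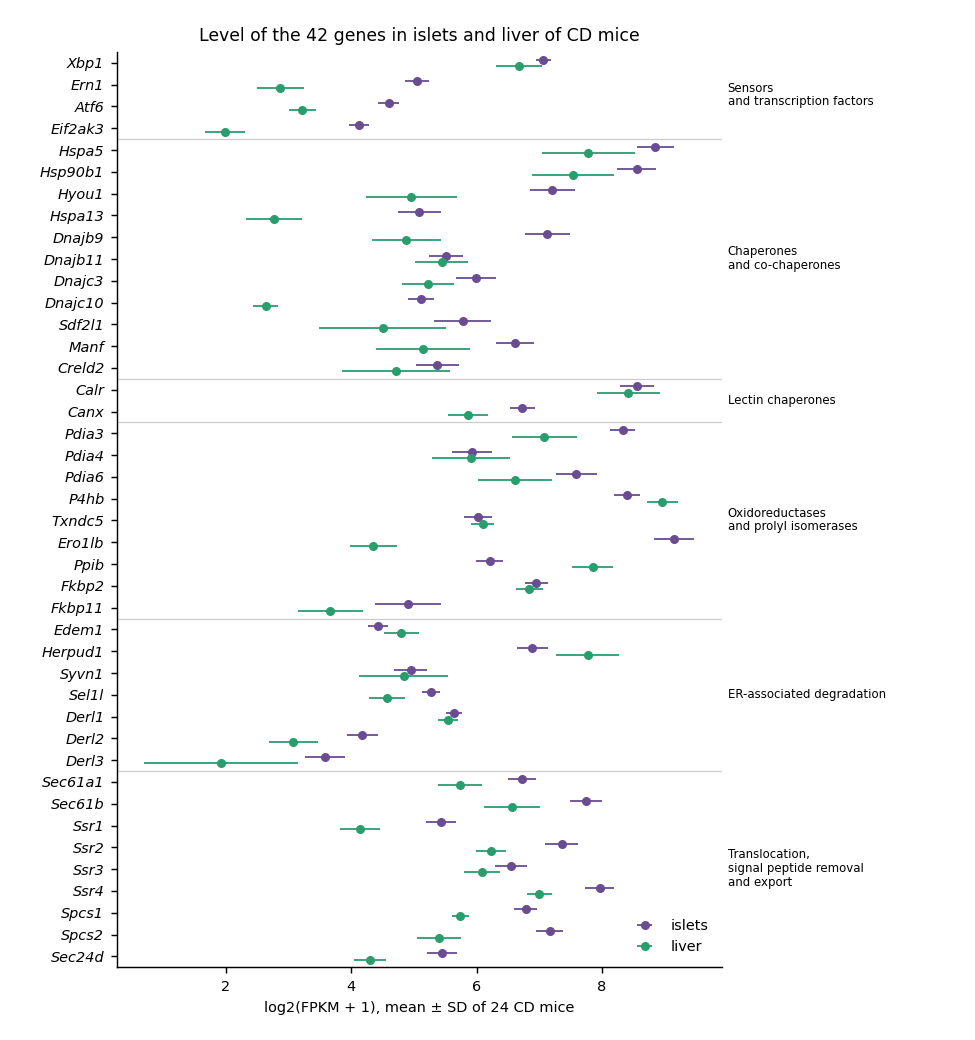
Level of the 42 genes in CD mice as log2(FPKM + 1) on the horizontal axis, grouped by role, with points for the mean and bars for the SD of 24 islet (purple) and 24 liver (green) libraries. Ero1lb lies farthest to the right in islets at a mean of 581 FPKM, and the bars are longer in liver for most chaperones.

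Levels also moved between weeks in mice that never received HFD. In CD islets, 39 of 42 genes differed between weeks by the F test of limma (92.9%), with 77.6% of all genes called, and in CD liver 21 of 42 (50.0%), with 55.3% of all genes called. The highest of the 6 weekly means fell at week 8 for 30 genes in islets, and the lowest at week 24 for 21. Hspa5 in CD islets ranged from a mean of 372 FPKM at week 24 to 610 FPKM at week 8, a ratio of 1.64. In CD liver, 22 genes had their lowest mean at week 12, among them Hspa5, whose mean ran from 150 FPKM at week 12 to 390 FPKM at week 20. Age, day of sampling and sequencing run cannot be told apart in these differences. Each HFD effect below is read against CD mice of the same week for this reason. The weeks of the highest and lowest means were counted for these genes alone and not over all genes. Week 24 in islets and week 12 in liver, where their lowest CD means fell most often, also held the most calls below. Whether a low level in CD or a high level in HFD mice made these differences was not tested.

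In islets, the number of genes called for HFD against CD ranged from 0 to 14 over the weeks, while a direct test of diet by week called 1 of 42 genes, Ero1lb, with 4.25% of all genes called. No gene was called by limma at week 4, with 0% of all genes called, or at week 20, with 4.74%. At an unadjusted p under 0.05, 3 of 42 were counted in each of these weeks, against 7.38% and 25.7% of all genes. At week 8 only Derl2 was called, lower, with 0.602% of all genes higher and 4.67% lower. At week 12, 8 genes (19.0%) were higher and 2 (4.76%) lower, against 2.18% and 2.35% of all genes. At week 16, Creld2 was higher and Ppib and Ssr4 were lower, against 3.3% and 5.15%. At week 24, 14 of 42 genes (33.3%) were higher and none lower, against 6.57% higher and 1.73% lower over all genes. Calls were thus spread over 25 genes, and 23 of these had 1 call each. The median change of the 42 genes was 0.13 at week 12 and 0.24 at week 24, where that of all genes was 0.01 and 0.08. Every HFD library was above every CD library in 10 genes at week 12 and in 15 at week 24, against 6.91% and 13.7% of all genes. At week 12, 3 genes were wholly below, against 3.47% of all genes.

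Creld2, an ER-resident chaperone of the disulfide isomerase type that is induced with Manf, was the gene called most often in islets, at weeks 12, 16 and 24. At week 12 the CD islets had 44.1, 36.0, 38.7 and 32.4 FPKM and the HFD islets 47.0, 59.8, 61.4 and 67.6 FPKM. All 4 HFD libraries were above all CD libraries, and the log2 difference was 0.62 ± 0.11 (adjusted p = 0.000819 by limma). At week 24 the CD islets had 29.95, 31.7, 36.8 and 39.2 FPKM and the HFD islets 45.6, 50.9, 54.5 and 45.0 FPKM. The groups were again separate, with a difference of 0.50 ± 0.09 (adjusted p = 0.0035 by limma), which was called without any 1 of the 8 libraries and also with the acinar marker level as a covariate (0.55, adjusted p = 0.0142). At week 16 the ranges met, with 29.4 to 35.8 FPKM in CD and 35.7 to 50.1 FPKM in HFD islets. At week 20 they overlapped fully, since 2 CD libraries had 64.8 and 68.0 FPKM. Sdf2l1, a partner of BiP that holds proteins in solution, was called at weeks 12 and 24, by 0.53 ± 0.14 and 0.36 ± 0.10. Its CD islets at week 24 had 36.3, 41.6, 45.4 and 43.0 FPKM and its HFD islets 47.6, 64.4, 50.0 and 53.6 FPKM, which did not overlap.

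The calls of week 12 included 3 of 9 oxidoreductases and prolyl isomerases and 2 of 9 genes of translocation and export. Ero1lb had 503, 476, 474 and 448 FPKM in CD and 636, 791, 848 and 870 FPKM in HFD islets, with every HFD library above every CD library. Its difference of 0.71 ± 0.08 had the lowest adjusted p of the group in islets (5.39e-06 by limma). Pdia6, another disulfide isomerase, rose by 0.41 ± 0.09, Fkbp2, a prolyl isomerase, by 0.38 ± 0.09, and Sec61b, a subunit of the translocation channel, by 0.37 ± 0.08. Each of these and Ero1lb was called without any 1 of the 8 libraries. Spcs1 of the signal peptidase rose by 0.35 ± 0.08 and Calr, the lectin chaperone calreticulin, by 0.29 ± 0.08. The 2 that fell both belong to ERAD: Sel1l, the scaffold of the HRD1 ligase, from 40.6 ± 2.75 FPKM (SD, n = 4) to 30.6 ± 3.15 FPKM, and Herpud1, with 129 to 167 FPKM in CD and 96.6 to 125 FPKM in HFD islets. Hspa5 at week 12 had 438, 377, 421 and 374 FPKM in CD and 397, 347, 378 and 489 FPKM in HFD islets, which overlapped, with a difference of -0.01 ± 0.09.

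Insulin share and the markers of acinar, alpha and delta cells moved with diet at weeks 12 and 16. The sum of 5 alpha cell markers had medians of 13600 FPKM in CD and 5270 FPKM in HFD islets at week 12 and of 12000 and 2540 FPKM at week 16, and that of 3 delta cell markers 3840 and 1630 FPKM and 2800 and 577 FPKM, all without overlap. Their part in the result was not tested. With Ins1 and Ins2 left out of the islet total, the median of all genes moved to 0.48 at week 12 and to 0.36 at week 16, and 36 and 30 of the 42 genes were called higher with none lower, with 73.8% and 71.4% of all genes called higher. Under this scaling the median of the 42 genes was 0.63 at week 12 and 0.38 at week 16. Relative to the median of all genes, Ero1lb (1.22), Creld2 (1.13) and Sdf2l1 (1.04) remained above it at week 12, while Sel1l (0.09) and Herpud1 (0.12) were below it and no longer negative. With the acinar marker level as a covariate, no gene was called at weeks 12 and 16, where 0.7% and 1.07% of all genes were called. At week 12 the median of the 42 genes was then 0.15, near the 0.13 without the covariate, and that of all genes -0.15. CD and HFD islets did not overlap in the sum of the acinar markers in either week, with 75200 to 180000 FPKM in CD and 12000 to 56100 FPKM in HFD islets at week 12. Under median ratio scaling, 2 of the 42 genes were higher and 2 lower at week 12, against 2.82% and 3.44% of all genes. The median of the 42 genes was then 0.11 and that of all genes -0.01. Leaving out 1 library moved the week 12 count of 10 to between 6 (without mouse CD306 or CD308) and 14 (without mouse CD304).

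At week 24 the calls included 7 of 11 chaperones and co-chaperones. The 14 genes that rose were Xbp1, 7 chaperones and co-chaperones (Hsp90b1, Hyou1, Dnajb11, Dnajc3, Sdf2l1, Manf and Creld2), the lectin chaperone Canx, Pdia4 and Txndc5, and Sec61a1, Ssr3 and Spcs2 of the translocation machinery. No ERAD gene was called. Canx, or calnexin, had 102, 88.3, 105 and 98.6 FPKM in CD and 119, 156, 138 and 125 FPKM in HFD islets, a difference of 0.44 ± 0.09 without overlap. Hyou1 rose from 111 ± 9.59 to 151 ± 19.4 FPKM, and Spcs2 of the signal peptidase had 113.42, 112.75, 113.77 and 130 FPKM in CD and 148, 184, 147 and 151 FPKM in HFD islets. Xbp1 had 121, 121, 113.63 and 130 FPKM in CD and 136, 158, 146 and 142 FPKM in HFD islets, which did not overlap, and its difference was 0.26 ± 0.08. Hspa5 was at 386, 328, 368 and 408 FPKM in CD and 400, 539, 435 and 410 FPKM in HFD islets, where the groups overlapped and the difference of 0.25 ± 0.10 had an adjusted p of 0.127 (limma). Insulin took 66.5% ± 4.00 and 66.9% ± 3.14 of the FPKM in CD and HFD islets of this week. Alpha and delta cell markers were lower in HFD islets of this week, with medians of 11600 and 1630 FPKM and of 2530 and 359 FPKM, without overlap. The sum of the 20 acinar markers was 31800 to 82300 FPKM in CD and 20700 to 42600 FPKM in HFD islets, and that of 6 B and plasma cell markers, another secretory lineage, 7.85 to 76.4 FPKM and 4.81 to 12.2 FPKM. The sums of 7 ductal and 5 endothelial markers were instead higher in HFD islets of this week, without overlap. Their medians in CD and HFD islets were 153 and 195 FPKM for ductal and 75.9 and 90.6 FPKM for endothelial markers. The part of the alpha, delta, B and plasma cell, ductal and endothelial markers in the result was not tested. The count fell to 8 with insulin left out of the total (5.6% of all genes higher) and to 3 (Manf, Creld2 and Spcs2) with the acinar covariate (1.69% of all genes higher), where the median of the 42 genes was 0.23 and that of all genes 0.03. Under median ratio scaling it was 3 (Hyou1, Canx and Creld2), against 3.42% of all genes higher and 3.11% lower. Without 1 library it lay between 4 (without CD605) and 16 (without HFD611), and was also 5 or 6 without CD601, CD606, HFD614 or HFD616.

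**Figure D2:**
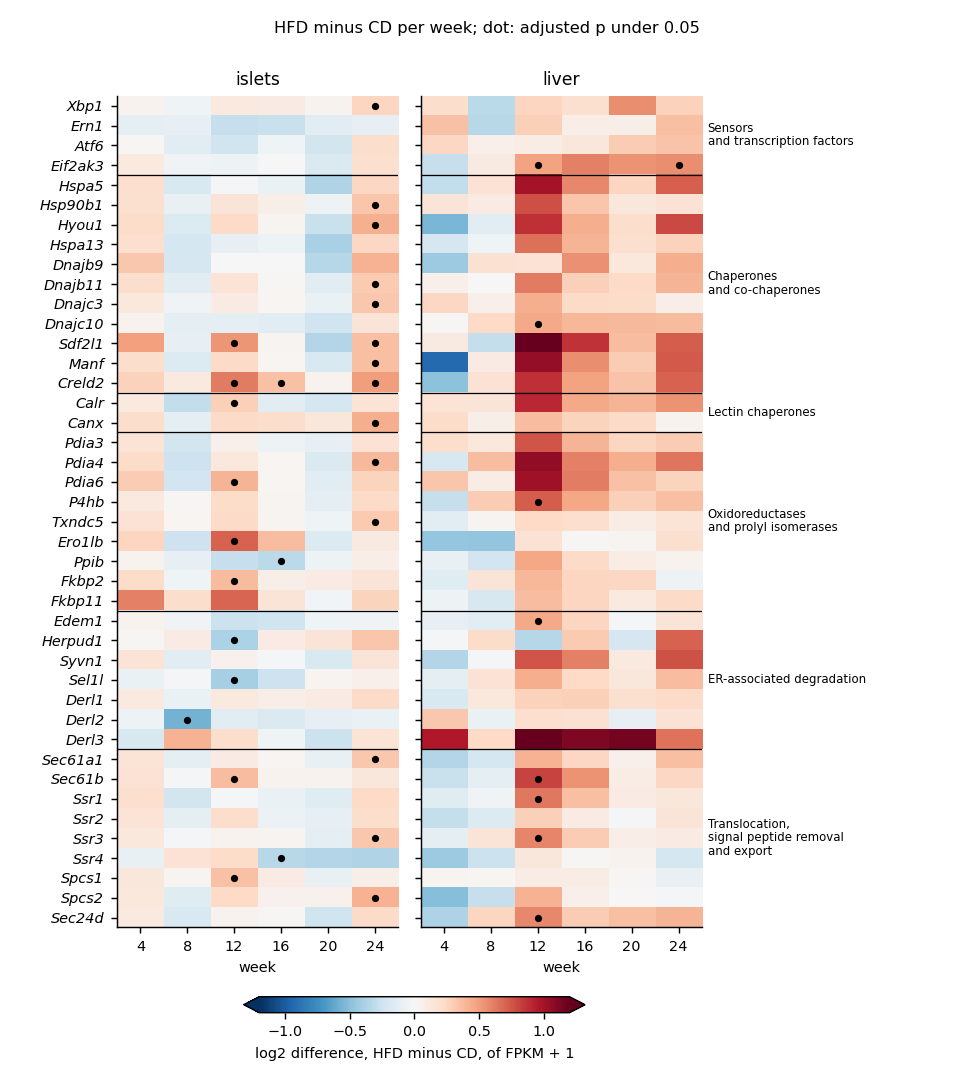
Difference between HFD and CD of log2(FPKM + 1) for the 42 genes (rows, grouped by role) at each week (columns) in islets and liver, red for higher and blue for lower in HFD, with a dot where the adjusted p was under 0.05. In islets the dots gather at weeks 12 and 24, whereas in liver the red at week 12 is deepest but only 8 genes carry a dot.

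Averaged over the 6 weeks, islets showed a modest effect in both directions. Of 42 genes, 11 were higher (26.2%) and 3 lower (7.14%), against 16.6% and 22% of all genes. Creld2 had the largest mean effect at 0.32 ± 0.07, with a difference above 0 in all 6 weeks, and Fkbp11, a prolyl isomerase of secretory cells, had 0.32 ± 0.11. Canx and Ero1lb rose by 0.18 ± 0.04 and 0.18 ± 0.06, Fkbp2 by 0.14 ± 0.05 and Sec61b by 0.12 ± 0.04. Txndc5 and Spcs2 (0.12 each), Spcs1 and Derl1 (0.10 each) and Xbp1 (0.08) completed the higher genes. The 3 lower genes were Derl2 at -0.18 ± 0.04 and Sel1l at -0.11 ± 0.04, both of ERAD, and the sensor Ern1 at -0.16 ± 0.06, which was below 0 in all 6 weeks. Derl2 encodes a derlin that helps to pull proteins out of the ER. At week 8 it had 24.8, 22.0, 20.2 and 24.0 FPKM in CD and 15.5, 16.0, 13.1 and 15.4 FPKM in HFD islets, without overlap. In that week 1 of the 42 genes had every HFD library below every CD library, against 15.8% of all genes. The mean effect of Hspa5 was -0.03 ± 0.06, that of Atf6 -0.07 ± 0.05 and that of Eif2ak3 0.01 ± 0.04, none of which was called. The other 25 genes that were not called lay between -0.12 and 0.16. With insulin left out of the total, 33 genes were higher and none lower, with 63.7% of all genes higher, the median of all genes was 0.17, and Ern1 was at 0.02. Without week 12 the count was 7, with 32.1% of all genes called. The effect on Ero1lb differed between weeks (adjusted p = 0.00828 by limma).

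In liver, few genes were called in any week. No gene was called at weeks 4, 8, 16 and 20, with between 0.0506% and 7.49% of all genes called (0.0506%, 7.49%, 7.43% and 2.47%). At an unadjusted p under 0.05 these weeks counted 14, 6, 4 and 4 genes of 42, against 12.9%, 22.6%, 22.6% and 15.3% of all genes, so that the share was above that of all genes at week 4 alone. At week 12, 8 genes (19.0%) were higher, and none lower, against 9.42% and 1.22% of all genes. Markers of other liver cells moved with diet in the same week. The sum of 6 stromal markers was 41.2 to 75.0 FPKM in CD and 81.0 to 125 FPKM in HFD livers, and that of 5 macrophage markers 23.5 to 31.1 FPKM and 40.0 to 105 FPKM, and neither list overlapped at week 16 either. Their part in the result was not tested. At week 24, Eif2ak3 alone was called, higher, with 0.65% of all genes higher and 0.187% lower. From week 12 on, the members leaned upwards whether called or not. Differences above 0 were seen in 41 of 42 genes at week 12 and in all 42 at week 16. They were seen in 37 at week 20 and in 38 at week 24. Of all genes, 69.4%, 69.9%, 65.2% and 62.5% were above 0 in these weeks. Under median ratio scaling the counts were 39, 36, 33 and 35, against 52.2%, 50.1%, 50.0% and 46.9% of all genes. Most members rose and fell together from mouse to mouse, so these counts are no independent repeats and were not tested. At week 16 the mean log2 deviation of the members from their group was 0.73 in liver of HFD416 and -0.53 in HFD414. The median difference of the 42 genes was 0.46 at week 12 and 0.29 at week 24, against 0.11 and 0.06 for all genes. At week 4 it was -0.13, against 0.09, and 15 of 42 genes were above 0, against 68.3% of all genes. In that week every HFD liver was below every CD liver in 5 genes and above in 1, against 2.03% and 5.85% of all genes. Every HFD liver was above every CD liver in 10 genes at week 12 and in 9 at week 24, against 14.6% and 8.14% of all genes.

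Eif2ak3, which encodes PERK, the sensor that slows translation, was the gene called in more than 1 week in liver. At week 12 the CD livers had 2.56, 1.84, 2.00 and 1.95 FPKM and the HFD livers 2.98, 3.80, 3.18 and 3.26 FPKM, and at week 24 they had 3.45, 3.55, 3.14 and 2.74 FPKM and 4.85, 5.04, 6.01 and 5.04 FPKM. The groups did not overlap in either week, and the differences were 0.48 ± 0.10 and 0.56 ± 0.11. The call of week 12 held in 3 and that of week 24 in 1 of the 8 fits that left out a library. The added 1 makes these smaller than the log2 ratio of such low values. P4hb at week 12 had 451, 444, 367 and 390 FPKM in CD and 633, 824, 662 and 625 FPKM in HFD livers, a difference of 0.73 ± 0.11 (adjusted p = 0.00972 by limma) that was called without any 1 of the 8 libraries. The other calls of week 12 were Sec61b (0.81 ± 0.20), Ssr1 (0.63 ± 0.15) and Ssr3 (0.59 ± 0.12), which belong to the translocation site, Sec24d (0.58 ± 0.12), a coat protein of export vesicles, Dnajc10 (0.45 ± 0.10) and Edem1 (0.45 ± 0.11).
The 8 genes called at week 12 did not include the ones that moved most. Sdf2l1 had a difference of 1.48 at week 12 and Manf, a secreted ER protein that binds BiP, one of 1.05, and neither was called. Manf had 20.3, 38.9, 16.9 and 14.2 FPKM in CD and 17.4, 96.3, 66.7 and 34.4 FPKM in HFD livers, so that 2 of 4 HFD mice were far above the CD mice and 2 lay among them. Hspa5 behaved likewise, with 139, 239, 112.7 and 111 FPKM in CD and 129, 564, 450.05 and 206 FPKM in HFD livers, a difference of 1.00 ± 0.50 (adjusted p = 0.216 by limma). At week 24 the CD livers had 206, 206.59, 255 and 235 FPKM and the HFD livers 345, 365, 556 and 267 FPKM of Hspa5, which did not overlap but were not called either (0.72 ± 0.20, adjusted p = 0.129 by limma). Leaving out 1 library moved the week 12 count from 8 to 17 (without CD304) or to 1 (without CD307, CD308 or HFD315), and to 3 and 5 without HFD318 and HFD316.

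Over the 6 weeks, 18 genes (42.9%) were higher in HFD liver and none lower, against 35.8% of all genes higher and 6.78% lower. Since the liver as a whole leaned this way, the share was near that of all genes. Derl3, a derlin induced by the response, had the largest mean effect at 0.89 ± 0.31. The disulfide isomerases Pdia4, Pdia6, Pdia3 and P4hb rose by 0.49 ± 0.15, 0.44 ± 0.13, 0.35 ± 0.11 and 0.31 ± 0.06, Calr by 0.44 ± 0.11 and Dnajc10 by 0.31 ± 0.05. Among the sensors, Eif2ak3 rose by 0.34 ± 0.08 and Atf6 by 0.20 ± 0.05, while Ern1 (0.14 ± 0.07) and Xbp1 (0.20 ± 0.10) were not called. Hspa5 had a mean effect of 0.41 ± 0.20 with an adjusted p of 0.0932 (limma). Dnajb11, Sec24d, Sec61b, Dnajc3, Sel1l, Canx, Ssr3, Derl1 and Fkbp2 were the other genes called, between 0.14 and 0.27. The 24 genes that were not called lay between -0.12 and 0.54. Under median ratio scaling 9 were higher and 1 lower, against 21.4% and 16.9% of all genes. Without week 12 there were 6 higher and 1 lower, against 28.1% and 4.96% of all genes. Between weeks the effect differed in P4hb alone (adjusted p = 0.0406 by limma), with 1.46% of all genes called.

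The difference between the tissues was tested directly. The mean HFD effect was lower in islets than in liver for 13 of 42 genes (31.0%) and higher for none, against 34% and 6.8% of all genes, so that the group's share was near that of all genes. The genes were the sensors Ern1 (-0.30 ± 0.09), Atf6 (-0.27 ± 0.07) and Eif2ak3 (-0.33 ± 0.09), with Dnajc10 (-0.38 ± 0.07), Calr (-0.45 ± 0.13), Pdia3 (-0.34 ± 0.12), Pdia4 (-0.43 ± 0.17), P4hb (-0.22 ± 0.07), 4 ERAD genes (Edem1, Sel1l, Derl2 and Derl3) and Sec24d. Hspa5 differed by -0.43 ± 0.21 without a call (adjusted p = 0.0892 by limma). The count was 6 without week 12, all lower, against 27.8% of all genes lower. Under median ratio scaling it was 3 higher and 8 lower, against 14.7% and 23.6% of all genes.

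Mice of the same diet and week differed in these genes, and far more so in liver. With group means removed, the SD between mice on the log2 scale was larger in liver for 39 of 42 genes, with a median of 0.31 in liver and 0.18 in islets. For Hspa5 it was 0.70 in liver and 0.21 in islets. The spread of all genes was not compared between the tissues, so these values describe the 42 genes alone. Across all 48 mice Hspa5 ran from 93.3 to 948 FPKM in liver, a ratio of 10.2, and from 327 to 713 FPKM in islets, a ratio of 2.18. At week 16 the CD livers had 209, 140, 530 and 209 FPKM and the HFD livers 527, 158, 948 and 209 FPKM, so that high and low mice were present on both diets. Creld2 in the same livers had 16.8, 12.4, 68.5 and 22.9 FPKM in CD and 51.9, 12.1, 137 and 14.8 FPKM in HFD mice. The same mice were high in both genes, 1 on CD and 2 on HFD.

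**Figure D3:**
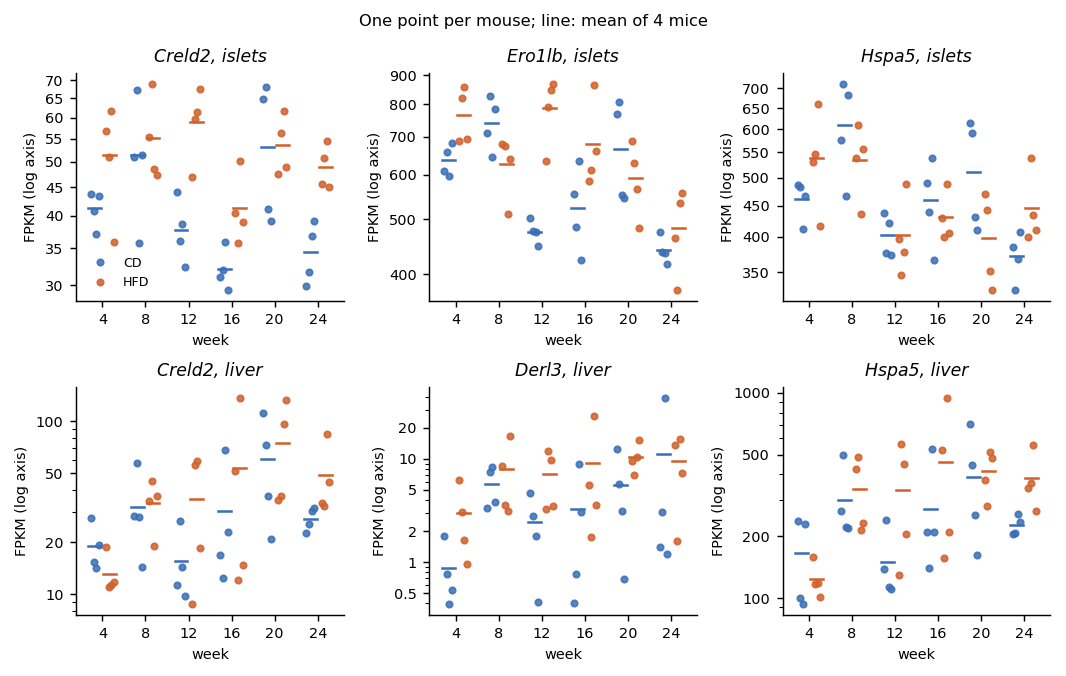
FPKM on a log axis against week of diet, 1 point per mouse and a line at the mean of 4, for Creld2, Ero1lb and Hspa5 in islets and Creld2, Derl3 and Hspa5 in liver, with CD in blue and HFD in orange. Islet values of Hspa5 stay between 327 and 713 FPKM, whereas liver values spread from 93.3 to 948 FPKM with high mice in both diets.

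Nearly the whole group moved with Hspa5 from mouse to mouse. In a model with the mean of each diet and week, the level of 39 of the other 41 genes rose with that of Hspa5 in islets (95.1%), against 6.22% of all genes, and of 33 of 41 in liver (80.5%), against 8.93% of all genes. None went the other way, whereas 5.15% and 7.87% of all genes did. These 2 counts were 39 and 33 under median ratio scaling, against 7.63% of all genes higher and 7.26% lower in islets and 9.96% and 9.22% in liver. In islets it was 39 as well with the acinar covariate or with insulin left out of the total, where 6.58% and 5.62% of all genes were higher. In CD mice alone they were 30 and 27, against 2.6% and 7.73% of all genes, and in HFD mice alone 27 and 25, against 2.5% and 1.81%. Without the 2 libraries in which Hspa5 lay farthest from its group mean, an alternative chosen after the data were seen, they were 34 and 29. Of all genes, 4.95% were then higher and 3.69% lower in islets, and 7.31% and 7.91% in liver. Over 11 lists of cell type markers, the r of the summed level with Hspa5 within groups lay between -0.23 and 0.32 in islets and between -0.17 and 0.33 in liver (48 mice each, given as a description).

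The highest r values were found across several roles. In liver, Manf rose with a slope of 1.05 per log2 unit of Hspa5 (r = 0.97, rho = 0.94, 48 mice, limma adjusted p = 5.19e-20 for the slope), Hyou1 with 0.96 (r = 0.96) and Pdia4 with 0.74 (r = 0.96). Creld2 had a slope of 1.15 (r = 0.91) and Sdf2l1 of 1.09 (r = 0.87). Ero1lb (r = 0.94), the ERAD ligase Syvn1 (r = 0.93), Spcs2 (r = 0.92) and Sel1l (r = 0.91) followed as well. In islets Hyou1 (slope 1.04, r = 0.95), Manf (0.97, r = 0.93), Ssr3 (0.76, r = 0.93), Pdia4 (r = 0.92), Dnajb9 (1.24, r = 0.92), Ssr1 (0.76, r = 0.92) and Dnajc3 (0.80, r = 0.92) were closest. Without the 2 mice farthest in Hspa5, no r changed by more than 0.12 in islets and 0.14 in liver.

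The sensors varied in how closely they followed Hspa5. In liver, Xbp1 (r = 0.34), Ern1 (r = 0.34) and Atf6 (r = 0.29) were not called, and Eif2ak3 (r = 0.63) was. In islets Ern1 (r = 0.10, slope 0.10 ± 0.15, and -0.02 under median ratio scaling) was not called, while Xbp1 (r = 0.66), Atf6 (r = 0.71) and Eif2ak3 (r = 0.58) were. The islet slope of Xbp1 was 0.26, against 1.27 for Sdf2l1 and 1.25 for Fkbp11. Fkbp2, Fkbp11, Herpud1, Ssr4 and Spcs1 were the other genes not called in liver, with r between 0.29 and 0.35, and Derl2 (r = 0.28) the other one in islets. In liver, the 9 genes with an ERSE beside Hspa5 had r between 0.61 and 0.94 with a median of 0.81, and the 25 with a window but no ERSE had r between 0.29 and 0.96 with a median of 0.61. In islets the medians were 0.67 and 0.66. These genes share their libraries, and the comparison of promoters is a description.

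**Figure D4:**
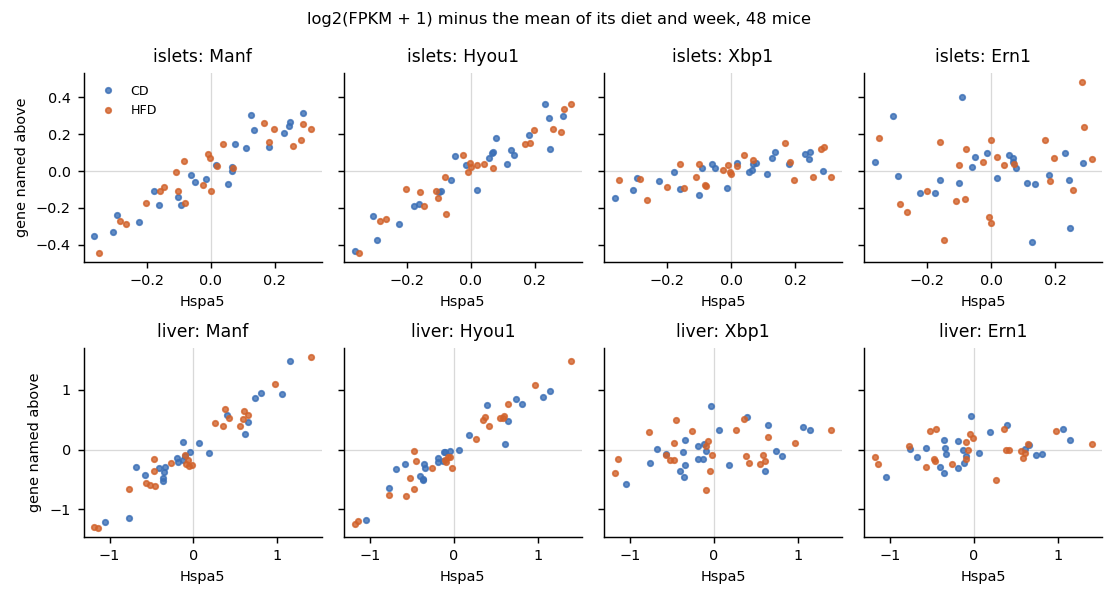
Each point is a mouse (CD in blue, HFD in orange), with the deviation of Hspa5 from the mean of its diet and week on the horizontal and that of Manf, Hyou1, Xbp1 or Ern1 on the vertical axis, both in log2(FPKM + 1), for islets above and liver below on different scales. Manf and Hyou1 follow Hspa5 along a line in both tissues, whereas Ern1 had r = 0.10 in islets and 0.34 in liver and was called in neither.

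**Figure D5:**
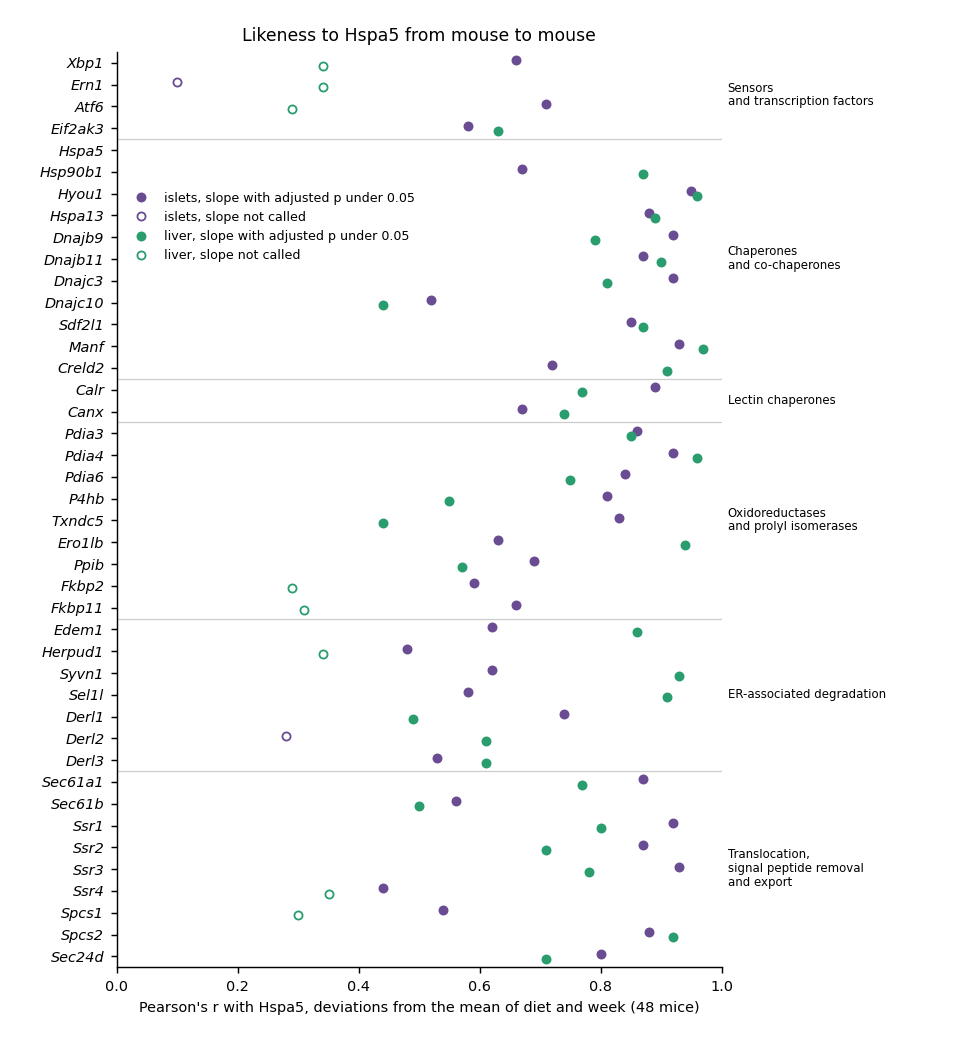
Pearson's r of each gene with Hspa5 over 48 mice with group means removed, in islets (purple) and liver (green), filled where the slope had an adjusted p under 0.05. Of the 10 other chaperones and co-chaperones, 7 in islets and 8 in liver lie above 0.8, and the lowest value is that of Ern1 in islets at 0.10.

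Islets and liver of the same mouse were compared last. The deviation of Hspa5 in islets was weakly related to that in liver (r = 0.322, p = 0.0463 and rho = 0.333, p = 0.0398, 2-sided permutation tests with 100000 permutations within groups, 48 mice). Without the 2 mice farthest from the median of the islet level it was r = 0.305 with p = 0.0717 and rho = 0.313 with p = 0.0606 by the same permutation test, so that the relation was not called over the other 46 mice. As a description, r was above 0 for 36 of 42 genes, from -0.17 for Sec61a1 to 0.57 for Pdia6, with a median of 0.25. The share of all genes with an r above 0 was not computed. Most of the 42 genes moved together from mouse to mouse, so they are no independent repeats. Pdia6, Herpud1 (0.56), Calr (0.53) and Creld2 (0.52) were the genes at 0.5 or more.

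Other genes of the pathway were examined from 3 lists. Of 23 genes for translocation, glycosylation and traffic, all tested in islets, 8 (34.8%) were higher on average over the weeks and none lower, against 16.6% of all genes higher, and 10 were higher in at least 1 week. Kdelr3, a receptor that returns chaperones from the Golgi apparatus, was called higher in 3 weeks, with a mean effect of 0.32 ± 0.05 (adjusted p = 9.28e-06 by limma). In liver 3 of 21 tested genes of this list (14.3%) were higher, below the 35.8% of all genes. Of 21 further folding and quality control genes, 20 were tested in each tissue, of which 6 in islets (30%) and 4 in liver (20%) were higher and 1 in each was lower, above the share of all genes in islets and below it in liver. The third list held 8 genes of the integrated stress response, the arm that runs from PERK through ATF4. In liver, 4 of 8 (50%) were higher, against 35.8% of all genes (Atf3 by 1.22 ± 0.27, Chac1 by 0.84 ± 0.17, Ddit3 by 0.36 ± 0.14 and Sesn2 by 0.22 ± 0.07) and Atf4 lower at -0.20 ± 0.07, and Atf3, a stress-induced transcription factor, was called in 3 weeks. In islets, 7 were tested, with Ppp1r15a higher at 0.20 ± 0.05 and Sesn2 lower at -0.17 ± 0.06, and none was called in any week. With Hspa5 from mouse to mouse, 19 of 23 genes of translocation and traffic rose in islets and 17 of 21 in liver, 13 and 10 of 20 folding and quality control genes, and of the integrated stress response none in islets and 1, Ddit3, in liver. Of all genes, 6.22% rose with Hspa5 in islets and 8.93% in liver. Creb3l3 of the folding and quality control list went the other way in liver, with a slope of -0.12 ± 0.04 (adjusted p = 0.032 by limma).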

How the data were processed

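Poly(A) RNA of islets and liver was reverse transcribed with random hexamers and sequenced on a BGISEQ-500 by the authors. The submitters' processing notes name HISAT2 2.0.4, Bowtie2 2.2.5, RSEM 1.1.12, DESeq2 and the build GRCm38.p5. The FPKM of 96 libraries were deposited by the authors, rounded to 2 decimals, in a table whose further columns (averages per group and the submitters' tests and clusters) were not used. The table holds no counts, so depth per gene is unknown and the number of mice (4 per group) sets the precision.

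Each value was transformed to log2(FPKM + 1), which understates the change of genes at low levels. Genes that reached 1 FPKM in 4 or more libraries of a fit (3 of 7 where 1 library was left out) were tested with limma 3.58.1 in R 4.3.3, with a mean-variance trend, robust variances and Benjamini-Hochberg adjustment over all genes tested. The fits were HFD against CD per tissue and week (8 libraries), the mean of 6 weekly differences, diet by week (F test), the effect in islets minus that in liver, islets minus liver in CD mice, week in CD mice (F test) and the slope on Hspa5 with group means in the model. Weekly comparisons use different mice, while the comparison of a mean effect with its weekly parts uses the same ones. Islet and liver libraries carry the identifier of the same mouse and so pair by animal. As a block, the mouse had a consensus correlation of 0.061 in the fit of the HFD effect across tissues.

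Alternatives were a pseudocount of 0.1, no filter, median ratio scaling, insulin genes left out of the islet total, the acinar marker level as a covariate, 1 fit of all 12 groups, the mouse as a block, each diet alone, and leaving out each library or week. The fits other than islets minus liver in CD mice were tested on simulated data, the weekly one at week 12 alone. Of the alternatives, only the mouse as a block was tested in this way. Single genes are named as follows. Hspa5 and the sensors are always named. Per tissue, so are genes called in at least 2 weeks and the 8 largest mean effects called, and between tissues the 6 largest and 3 smallest level differences. The other genes are named for completeness of a count or within a range. Liver Manf, Sdf2l1 and Creld2 and the genes closest to Hspa5 were picked out once the values were known. The 42 genes and the lists of markers and pathway genes were chosen with earlier results of these data known. One marker, Ighm, was not matched. Promoters were taken from RefSeq (GRCm38.p6) and exons from GENCODE vM21. Hyou1, Manf, Atf6, Derl1, Hspa13, Ssr2 and Sec61a1 were the genes without a window.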

Additional observations from a re-analysis of the deposited data

Results flagged for a closer look

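The mean HFD effect differed between tissues by limma in 13 genes, each given as islets minus liver on the log2 scale: Derl3 (-0.85), Calr (-0.45), Pdia4 (-0.43), Dnajc10 (-0.38), Pdia3 (-0.34), Eif2ak3 (-0.33), Sel1l (-0.32), Ern1 (-0.30), Derl2 (-0.30), Atf6 (-0.27), Sec24d (-0.26), P4hb (-0.22) and Edem1 (-0.20). These 13 were all lower in islets and made up 31% of the genes followed. Of all genes, 34% were lower and 6.8% higher, so that the share lower was near that of all genes. The HFD effect differed between weeks for Ero1lb in islets (adjusted p = 0.00828 by limma) and for P4hb in liver (adjusted p = 0.0406 by limma).

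A single mouse stood far from the other 3 of its group by Dixon's test in 11 of 300 groups of the genes named by rule, where chance flags about 1 in 20. In liver, Derl3 had 39.45 FPKM in 1 CD mouse of week 24 and at most 3.04 FPKM in the others, and 25.97 FPKM in 1 HFD mouse of week 16 against at most 5.57 FPKM. Calr had 474.11 FPKM in 1 HFD liver of week 4, against 271 to 295 FPKM. Eif2ak3 had 6.01 FPKM in 1 HFD liver of week 24, Hspa5 497.37 FPKM in 1 CD liver of week 8, Pdia4 114.36 FPKM in 1 CD liver of week 16 and Xbp1 135.7 FPKM in 1 HFD liver of week 8, each above the other 3. In islets, Fkbp11 had 52.23 FPKM in 1 CD mouse of week 12, above the others, while Atf6 had 21.24 FPKM in 1 HFD mouse of week 16, Ern1 25.78 FPKM in 1 HFD mouse of week 8 and Xbp1 128.65 FPKM in 1 CD mouse of week 8, each below the other 3.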

How the results depend on the processing

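A pseudocount of 0.1 kept every count of called genes within 1.5 times. The mouse as a replicate block gave 14 called genes in place of 13 for the HFD effect in islets against liver, and 37 with and without it for islets against liver in CD mice. The islet weeks depended most on the setting, and the cause was not tested. At week 12, 10 genes became 4 under median ratio scaling and 36 with insulin left out of the total. The count was 0 with the acinar covariate, 6 in 1 fit of 12 groups and 6 to 14 without 1 library. Of all genes, 4.53% were called in the weekly fit. This share was 6.26% under median ratio scaling, 75% with insulin left out, 0.7% with the covariate and 9.85% in 1 fit. At week 16, 3 became 1 without a filter or under median ratio scaling and 30 with insulin left out. The count was 0 with the acinar covariate or in 1 fit, and 1 to 3 without 1 library. Of all genes, 8.45% were called in the weekly fit, 9.14% without a filter and 10.6% under median ratio scaling. This share was 74.1% with insulin left out, 1.07% with the covariate and 7.76% in 1 fit. At week 24, 14 became 7 without a filter, 3 under median ratio scaling and 8 with insulin left out. The count was 3 with the acinar covariate, 8 in 1 fit and 4 to 16 without 1 library. Of all genes, 8.3% were called in the weekly fit, 5.86% without a filter and 6.53% under median ratio scaling. This share was 7.7% with insulin left out, 3.18% with the covariate and 13.1% in 1 fit. Without 1 library, weeks 4, 8 and 20 gave 0 to 2, 1 to 2 and 0 to 2. In liver, week 12 gave 5 without a filter and 1 to 17 without 1 library, week 16 gave 2 in 1 fit and 0 to 1 without 1 library, and week 24, with 1 call, gave 0 without a filter, under median ratio scaling or in 1 fit and 0 to 1 without 1 library. Of all genes in liver, 4.16% were called without a filter at week 12 and 9.36% in 1 fit at week 16. At week 24 this share was 0.451% without a filter, 0.699% under median ratio scaling and 3.67% in 1 fit. Liver weeks 8 and 20 gave 0 to 2 and 0 to 1 without 1 library.

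The mean effect in islets counted 33 with insulin left out (69.6% of all genes) and 7 without week 12 (32.1%), and 14 to 17 without 1 library. In liver it counted 10 under median ratio scaling (38.3% of all genes), 7 without week 12 (33%) and 13 to 21 without 1 library. Diet by week in islets counted 2 under median ratio scaling (with 3.59% of all genes called) and 34 with insulin left out (64%). It counted 0 with the acinar covariate (3.2%), and in liver 0 without a filter (0.753%). The HFD effect in islets against liver counted 6 without week 12, with 32.8% of all genes called. The r of Hspa5 between tissues was 0.305 without 2 mice and lost its call. With insulin left out, differences in islets turned to 0.04 for Ppib and 0.03 for Ssr4 at week 16 and to 0.12 for Herpud1 and 0.09 for Sel1l at week 12, and mean effects to 0.02 for Ern1, 0.11 for Atf6, 0.16 for Hspa5, 0.18 for Calr, Ssr1 and Sec24d and 0.07 for Sel1l. Under median ratio scaling the level difference between tissues turned to -0.08 for Xbp1, -0.39 for Dnajb11, -0.34 for Calr, -0.46 for Pdia4, -0.35 for Fkbp2 and Syvn1, -0.37 for Derl1 and -0.01 for Ssr3. The table gives no depth, so sampling error of single values is unknown.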
